A study of Mus musculus with 6 samples.

Results

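Copying the genome before division takes a fixed machinery, and 41 genes that encode it were read in mouse hearts that had undergone TAC, transverse aortic constriction, which loads the left ventricle with pressure by narrowing its outlet vessel. The genes were taken by symbol from the deposited table, in which all 41 were found among 23995 genes, and the rule uses no measured value. They cover origin licensing, the replicative helicase and its activators, polymerases and primase, the sliding clamp with its loader and partners, nucleotide supply, the copying of chromatin and DNA methylation, and 3 regulators of S phase entry.

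RNA from whole heart was sequenced in 6 libraries. Of these, 3 were from mice labelled WT and 3 from mice labelled LTBP4-CKO, a cardiomyocyte-specific and inducible knockout of *Ltbp4*, which encodes a matrix protein that binds latent TGF-beta. All mice were operated on at 10 to 12 weeks of age. The names of the wild-type libraries contain "flox", and the labels used here give neither floxed alleles nor a Cre for them, nor the Cre line, the inducing agent, the sexes or the time after surgery. Hearts without TAC were not analysed here, so each comparison is between genotypes, or between libraries of a genotype, under pressure load.

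As background, replication starts in cells that have left quiescence. The origin recognition complex, CDC6 and CDT1 load the ring of MCM proteins onto DNA before S phase, CDC45, the GINS complex and MCM10 turn it into a moving helicase, and polymerases then copy both strands behind it, with PCNA as the clamp that holds them. Many of these genes are targets of E2F factors and are transcribed mainly as cells enter S phase. Most cardiomyocytes of the adult heart no longer divide, whereas endothelial cells, fibroblasts and macrophages can.

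The libraries have to be described first, because the results turn on them. The table gives FPKM, fragments per kilobase of transcript, scaled to the mapped fragments of the library. Low values allowed the depth to be recovered approximately, at 3700000 to 5900000 fragments in the wild-type libraries, at 14000000 in knockout library 1 and at 5900000 and 6700000 in knockout libraries 2 and 3. Differences close to counting noise were found between wild-type libraries 1 and 3, and between knockout libraries 2 and 3. In both cases the spread was 1.30 to 1.84 times that of counting, whereas the other 13 pairs reached 87.03 to 282.46 among the deepest genes. Each such pair was therefore averaged and counted as 1 sample, which left 2 samples per genotype. The labels do not state separate animals, and p-values therefore measure only the spread between these samples. The knockout samples differ in sex chromosome transcripts, given below, and so come from different animals. In the wild type the spread may be technical.

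The targeted gene, *Ltbp4*, was at 368, 248 and 357 FPKM across wild-type libraries 1 to 3, beside 139, 199 and 195 FPKM across the 3 knockout libraries, an estimate of -0.86 on the log2 scale (SE 0.49) that did not reach the threshold with limma (Benjamini-Hochberg adjusted p = 0.9988). *Esr1*, the estrogen receptor gene, was between 0 and 0.202 FPKM in the wild type and at 1425, 781 and 758 FPKM in the knockout. Whether the reads listed under *Esr1* come from the receptor gene itself was not tested. Knockout library 1 also stood apart by transcripts of the sex chromosomes. *Xist*, the X inactivation transcript, was at 41.9 FPKM there and between 0.0282 and 0.0608 FPKM in the other 5 libraries. The Y-linked *Eif2s3y* was listed at 0 in knockout library 1 and was between 35.1 and 54 FPKM elsewhere.

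Most DNA replication genes were at about wild-type level or lower in knockout library 1, and high in knockout libraries 2 and 3. The summed level of the 41 genes was 302, 318 and 294 FPKM in wild-type libraries 1 to 3, 219 FPKM in knockout library 1, and 842 and 844 FPKM in knockout libraries 2 and 3. In knockout libraries 2 and 3 the sum was thus 3.85 times that of knockout library 1 and 2.74 times the wild-type mean. The highest value was in knockout library 2 or 3 for 40 of the 41 genes, and the lowest was in knockout library 1 for 22 of them. In whole hearts, more cells of a type and more RNA per cell cannot be told apart.

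**Figure D1:**
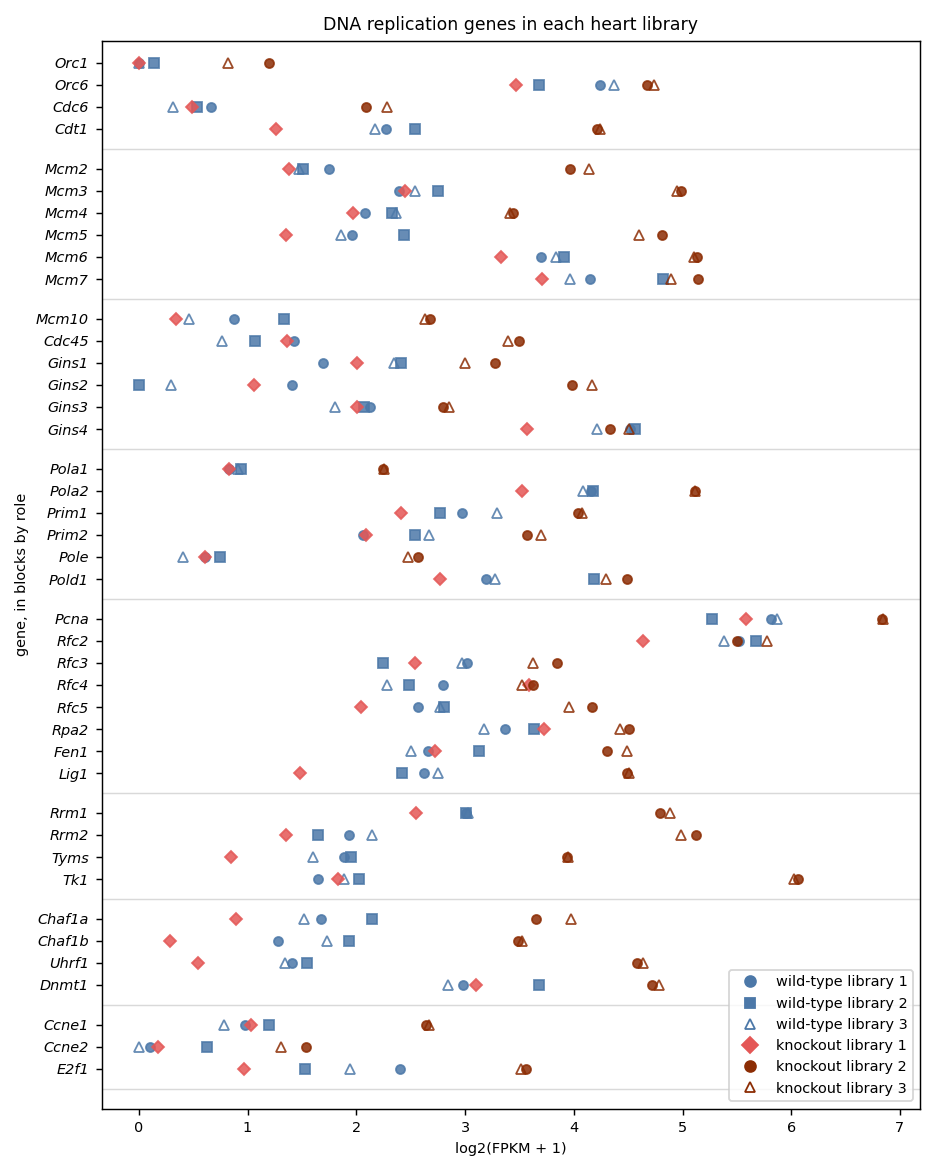
Level of each of the 41 DNA replication genes, as log2(FPKM + 1) on the horizontal axis, with 1 symbol per library and the genes in blocks by role. Knockout libraries 2 and 3 lie to the right of all wild-type libraries for 39 of 41 genes, while knockout library 1 lies below all of them for 22 genes and within their range for 17.

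Between genotypes, none of the 41 genes passed. Differences were taken on the log2(FPKM + 1) scale, which understates those of low genes, and tested with limma across the 12485 genes that had at least 1 FPKM in at least 3 libraries. Of the 41, 36 met that filter. The other 5 (*Orc1*, *Cdc6*, *Pola1*, *Pole* and *Ccne2*) were not tested, and 3 met it only through knockout libraries 2 and 3, so counts over the 36 are not read as support. Across all genes 1 was higher and 0 were lower (limma, Benjamini-Hochberg adjusted p under 0.05; 0.00801% and 0%), and that gene was *Esr1*. Without wild-type library 2, 12 genes were called, and 0 of them were replication genes. At an unadjusted limma p under 0.05 stood 1 of the 36 genes, *Rfc4*, beside 3.00% of all genes tested. Over all 41 genes the median difference was 0.49, beside 0.04 over all genes tested, and 37 of 41 estimates were above 0, beside 54.2% of all genes tested.

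That median rests on 1 of the 2 knockout samples. Knockout libraries 2 and 3 alone stood above the wild-type mean by a median of 1.45, and knockout library 1 alone stood below it, with a median of -0.38. Both values use the same wild-type samples. Both knockout libraries 2 and 3 were above every wild-type library for 39 of the 41 genes, where 27.5% of all genes tested were. Knockout library 1 was below every wild-type library for 22 of the 41 (30.4% of all genes tested) and above every wild-type library for 2 (32.7%), *Rfc4* and *Rpa2*. Only for these 2 genes were all knockout libraries above all wild-type libraries, where 10.4% of all genes tested were, so the genotypes as groups overlapped for the other 39. Without knockout library 1 the knockout is 1 sample, and its spread is assumed to be that of the wild type. In that fit 0 of the 36 genes passed, the lowest value being 0.0772 (limma, Benjamini-Hochberg adjusted p), and 25 had an unadjusted p under 0.05, beside 6.00% of all genes tested. The 36 include the 3 genes that met the filter only through knockout libraries 2 and 3, so that count is not read as support. By record number the libraries form 2 sets. In the first, which holds both knockout library 1 and knockout library 2, the median genotype difference was 0.53, and in the second, of wild-type library 3 and knockout library 3 alone, it was 1.58.

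**Figure D2:**
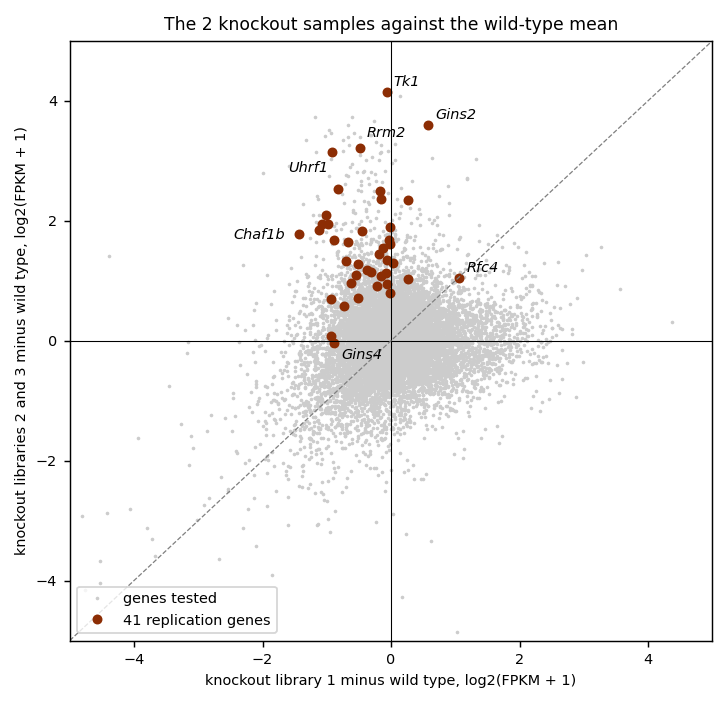
Each point is a gene, placed by its difference from the wild-type mean in knockout library 1 (horizontal) and in knockout libraries 2 and 3 (vertical), both on the log2(FPKM + 1) scale. The dashed line marks equal values, and 10 genes tested lie outside the axes. The 41 replication genes, in brown, spread upwards to 4.15 for Tk1 and mostly lie at or left of 0, with a median of -0.38 on the horizontal axis.

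Among the knockout libraries, 37 of the 41 genes were lower in library 1 than in libraries 2 and 3 by at least 1 on the log2 scale, a 2-fold step, and 0 were higher by that much. Of all genes tested, 8.90% were lower and 11.8% were higher by as much. The median over the 41 was 1.68 in favour of libraries 2 and 3, and over all genes tested it was -0.04. Closest to the line were *Rfc2* at 1.01 and *Orc1* at 1.02 inside, and *Gins4* at 0.85 and *Gins3* at 0.82 outside. With 1 sample on each side there is no test of this difference. Library 1 is the deepest, and its 41 genes rested on a median of 68.6 recovered reads, against 199.7 and 227 in libraries 2 and 3. Between libraries 2 and 3 themselves the median size of the difference was 0.09, and the widest was 0.38, for *Orc1*. Sex chromosome transcripts, listed above, separate the same libraries, so sex and the replication difference cannot be told apart within the knockout group.

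Among the wild-type libraries the same genes lay close together. Between library 2 and the mean of libraries 1 and 3, 0 of the 41 differed by at least 1 in either direction, where 7.68% of all genes tested were lower and 5.15% higher in library 2. The median difference was 0.14. The range ran from -0.96 for *Gins2*, which was listed at 0 in library 2, to 0.95 for *Pold1*.

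**Figure D3:**
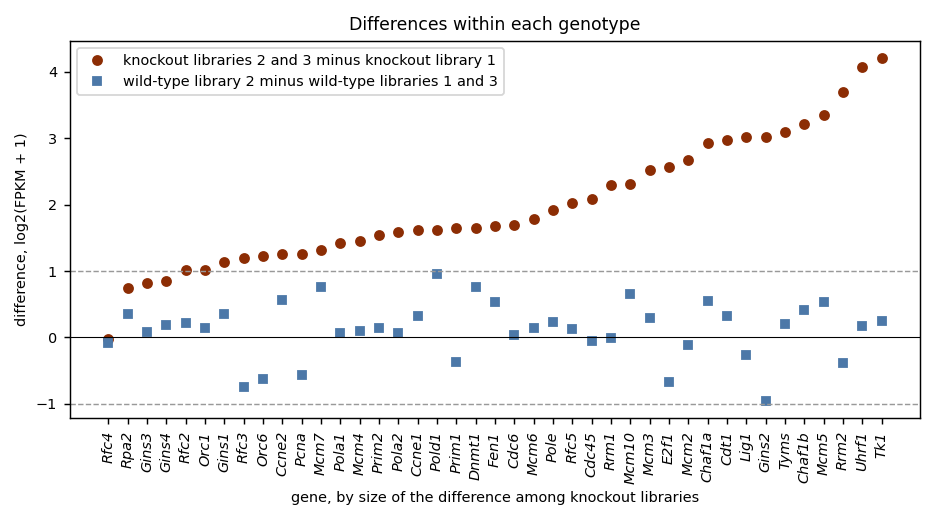
Difference between the samples of a genotype, on the log2(FPKM + 1) scale, for each of the 41 genes ordered along the horizontal axis. Dashed lines mark a difference of 1. Circles (knockout) exceed 1 for 37 genes, while squares (wild type) stay between the lines for all 41.

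All 4 origin licensing genes were above every wild-type library in knockout libraries 2 and 3. *Cdt1*, which brings the MCM ring to origins, was at 3.84, 4.83 and 3.5 FPKM across wild-type libraries 1 to 3, beside 1.4, 17.6 and 17.9 FPKM across the 3 knockout libraries. Its value in knockout library 1 lay below every wild-type value and those in libraries 2 and 3 above every one, so the genotype estimate was 0.36 (SE 0.90). *Orc6*, a subunit of the origin recognition complex, had an estimate of 0.10 (SE 0.51), with 17.9, 11.8 and 19.7 FPKM in the wild type and 10.1, 24.5 and 25.7 FPKM in the knockout. *Cdc6*, the loading ATPase, was between 0.241 and 0.589 FPKM in the wild type, at 0.405 FPKM in knockout library 1, and at 3.26 and 3.87 FPKM in libraries 2 and 3. *Orc1*, the largest subunit of the complex, was listed at 0 in wild-type libraries 1 and 3 and in knockout library 1, at 0.0996 FPKM in wild-type library 2, and at 1.3 and 0.766 FPKM in knockout libraries 2 and 3, from about 20.8 and 14 reads.

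All 6 genes of the MCM ring were above every wild-type library in knockout libraries 2 and 3, and 5 were below every one in knockout library 1. *Mcm5* was at 2.9, 4.42 and 2.62 FPKM across wild-type libraries 1 to 3, beside 1.56, 27 and 23.3 FPKM across the 3 knockout libraries. The gap between knockout samples, 3.35 on the log2 scale, was the widest in the ring and exceeded the wild-type gap of 0.53. *Mcm3* was at 4.26, 5.74 and 4.8 FPKM in the wild type and at 4.45, 30.7 and 29.9 FPKM in the knockout, with library 1 inside the wild-type range. *Mcm2* was at 2.37, 1.85 and 1.77 FPKM in the wild type and at 1.61, 14.6 and 16.6 FPKM in the knockout, an estimate of 1.15 (SE 0.83) between genotypes. The mean of 8.61 ± 9.9 FPKM in the knockout (SD, n = 2 samples) beside 1.96 ± 0.158 FPKM in the wild type shows how far apart the knockout samples were. *Mcm6* and *Mcm7* were the most abundant of the ring per length, at 12 to 14 and 14.6 to 27.3 FPKM in the wild type. *Mcm7* was at 12.1, 34.3 and 28.8 FPKM in the knockout, so its estimate was -0.07 (SE 0.54). Its exons overlap those of *Ap4m1* and *Cops6* on the other strand, and *Mcm4* differed by 1.46 between knockout samples.

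Genes that activate the helicase were uneven. *Gins2*, a subunit of the GINS complex, was at 1.66, 0 and 0.229 FPKM across wild-type libraries 1 to 3, beside 1.08, 14.8 and 17 FPKM across the 3 knockout libraries. Its genotype estimate was 2.09 (SE 0.96; limma, Benjamini-Hochberg adjusted p = 0.999), and knockout library 1 lay within the wild-type range. The exons of *Gins2* overlap those of *Gse1* on the other strand, which was between 8.92 and 12.5 FPKM in every library. The deposited position of *Gins2* spans 100210 bases, beside 10672 in the GENCODE M21 annotation. *Cdc45*, the helicase partner of GINS, was at 1.69, 1.1 and 0.694 FPKM in the wild type and at 1.57, 10.3 and 9.54 FPKM in the knockout. *Mcm10*, a helicase-associated factor, differed by 2.31 between knockout samples and *Gins1* by 1.13. *Gins3* (0.82) and *Gins4* (0.85) stayed under the 2-fold step. For *Gins4* every knockout library lay under the highest wild-type library, at 21.9, 22.7 and 17.5 FPKM in the wild type and 10.9, 19.2 and 21.7 FPKM in the knockout.

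The 6 polymerase and primase genes differed between knockout samples by a median of 1.61, beside 2.16 for the MCM ring. *Pole*, the catalytic subunit of the leading-strand polymerase epsilon, was at 0.522, 0.677 and 0.324 FPKM across wild-type libraries 1 to 3, beside 0.522, 4.93 and 4.55 FPKM across the 3 knockout libraries. Knockout library 1 lay within the wild-type range, and the other 2 lay above it. *Prim1*, the catalytic primase subunit, was at 6.87, 5.83 and 8.8 FPKM in the wild type and at 4.32, 15.4 and 15.9 FPKM in the knockout. *Prim2*, its large partner, was at 3.17, 4.8 and 5.37 FPKM and at 3.25, 10.9 and 12 FPKM. The differences between knockout samples ran from 1.42 for *Pola1* to 1.92 for *Pole*, with *Pola2* (1.59) and *Pold1* (1.62) between them. *Pold1*, the catalytic subunit of the lagging-strand polymerase delta, had a genotype estimate of -0.13 (SE 0.62), with wild-type library 2 at 17.2 FPKM and knockout libraries 2 and 3 at 21.5 and 18.7 FPKM.

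The clamp, its loader and their partners held both genes whose genotypes did not overlap, *Rfc4* and *Rpa2*. *Pcna*, the sliding clamp, was at 55.1, 37.7 and 57.3 FPKM across wild-type libraries 1 to 3, beside 47, 113 and 114 FPKM across the 3 knockout libraries, so library 1 again fell among the wild-type values. Annotated pseudogenes of the same name exist for it and for *Tyms*, and how their reads were assigned is not given in the sources used here. *Lig1*, the ligase that joins Okazaki fragments, was at 5.15, 4.35 and 5.72 FPKM in the wild type and at 1.79, 21.5 and 21.8 FPKM in the knockout, with library 1 under every wild-type value. *Fen1*, the flap endonuclease of the same step, differed by 1.68 between knockout samples.

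*Rfc4*, a subunit of the clamp loader, departed from the pattern. It was at 5.95, 4.61 and 3.88 FPKM across wild-type libraries 1 to 3, beside 11, 11.3 and 10.5 FPKM across the 3 knockout libraries. No knockout value fell among the wild-type ones, and the knockout samples differed by only 0.02 on the log2 scale. Its estimate of 1.05 (SE 0.34) had the smallest p of the 41, an unadjusted 0.0184, and was not called by limma (Benjamini-Hochberg adjusted p = 0.999). The exons of *Rfc4* overlap those of *Eif4a2*, a translation factor gene on the other strand, and without strand the reads of both cannot be told apart. *Eif4a2* was at 225, 122 and 223 FPKM in the wild type and at 205, 90.3 and 92.2 FPKM in the knockout, and its part in the *Rfc4* value was not tested. *Rpa2*, a subunit of the single-strand binding protein RPA, was at 9.31, 11.4 and 8.01 FPKM in the wild type and 12.2, 21.7 and 20.5 FPKM in the knockout, an estimate of 0.64 (SE 0.40). The other loader subunits kept the common order, with differences between knockout samples of 1.20 for *Rfc3*, 2.03 for *Rfc5* and 1.01 for *Rfc2*. *Rfc2* was at 44.9, 50 and 40.8 FPKM in the wild type and 23.9, 44.4 and 53.8 FPKM in the knockout, so its libraries 2 and 3 did not clear the wild-type range.

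Of the 8 role groups, nucleotide supply had the highest median difference between knockout samples, 3.40. *Tk1*, thymidine kinase of the salvage pathway, was at 2.14, 3.06 and 2.69 FPKM across wild-type libraries 1 to 3, beside 2.56, 65.8 and 64.3 FPKM across the 3 knockout libraries. Library 1 sat inside the wild-type range, and libraries 2 and 3 were 25.4 times higher. On the log2(FPKM + 1) scale the difference, 4.21, was the widest of the 41. The plain ratio was higher for *Uhrf1* (51.2) and *Chaf1b* (46.6), which were at 0.457 and 0.222 FPKM in library 1. *Rrm2*, the regulated subunit of ribonucleotide reductase, was at 2.83, 2.14 and 3.43 FPKM in the wild type and at 1.56, 33.9 and 30.6 FPKM in the knockout. Their genotype estimates were 2.04 (SE 1.22) and 1.36 (SE 1.09), with 33.8 ± 44.2 FPKM for *Tk1* in knockout beside 2.74 ± 0.457 FPKM in the wild type (SD, n = 2 samples). *Rrm1*, the large subunit, was steadier in wild type than any of these, at 7.07, 7.04 and 7.14 FPKM, and at 4.85, 26.7 and 28.5 FPKM in the knockout. *Tyms*, thymidylate synthase, was at 0.796 FPKM in knockout library 1 and at 14.3 and 14.4 FPKM in libraries 2 and 3. *Tk1* overlaps *Afmid* on the other strand, which stayed between 6.92 and 10.3 FPKM in all 6 libraries.

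The 4 genes that copy chromatin and DNA methylation differed between knockout samples by a median of 3.07. *Uhrf1*, which recognises newly copied, hemimethylated DNA, was at 1.66, 1.92 and 1.54 FPKM across wild-type libraries 1 to 3, beside 0.457, 23 and 23.8 FPKM across the 3 knockout libraries. *Dnmt1*, the methyltransferase it recruits, was at 6.89, 11.8 and 6.19 FPKM in the wild type and at 7.6, 25.3 and 26.5 FPKM in the knockout. The gap between knockout samples was 4.07 for *Uhrf1* and 1.65 for *Dnmt1*, and library 1 was under the wild-type range for the former and inside it for the latter. *Chaf1a* and *Chaf1b*, subunits of the chromatin assembly factor that places histones on new DNA, differed by 2.93 and 3.22. The value of *Chaf1b* in knockout library 1, 0.222 FPKM, rested on about 5 reads.

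The 3 regulators were all above wild type in knockout libraries 2 and 3. *E2f1*, a transcription factor that drives S phase genes, was at 4.3, 1.88 and 2.84 FPKM across wild-type libraries 1 to 3, beside 0.956, 10.8 and 10.4 FPKM across the 3 knockout libraries. *Ccne1*, cyclin E1, was at 0.962, 1.29 and 0.718 FPKM in the wild type and at 1.04, 5.22 and 5.34 FPKM in the knockout. Both had knockout libraries 2 and 3 above every wild-type library, and genotype estimates of 0.39 (SE 0.83) and 0.80 (SE 0.60). *Ccne2* was between 0 and 0.544 FPKM in the wild type and reached 1.9 and 1.47 FPKM in knockout libraries 2 and 3, from about 30.4 and 26.8 reads.

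A wider list of 56 further replication genes gave a smaller gap. Of these, 24 were lower in knockout library 1 than in libraries 2 and 3 by at least 1 and 3 were higher. The shares of all genes tested were 8.90% and 11.8%. The median was 0.77 in favour of libraries 2 and 3. Between genotypes 0 of the 48 tested passed in either direction. An unadjusted limma p under 0.05 was found for 1, beside 3.00% of all genes tested. Estimates were above 0 for 43 of 56, beside 54.2% of all genes tested. The gene with the smallest p was *Gmnn*, which encodes geminin, the inhibitor of CDT1. It was at 12.9, 21.2 and 15.7 FPKM in the wild type and at 78, 26.8 and 34.5 FPKM in the knockout. Between knockout libraries it thus ran opposite to the licensing genes, with its highest value in library 1, while libraries 2 and 3 were also above every wild-type value. *Rpa1* (0.86, SE 0.40), *Hells* (0.76), *Tfdp1* (0.76), *Dut* (0.62) and *Slbp* (0.61) had the next smallest p values of this list (limma, Benjamini-Hochberg adjusted p = 0.9988 for all 6).

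Mitosis genes divided the libraries in the same way. Of 30, 29 were lower in knockout library 1 than in libraries 2 and 3 by at least 1, beside 8.90% of all genes tested. The median was 3.25 in favour of libraries 2 and 3. The summed level of the 30 was 101, 78.6 and 109 FPKM in the wild type and 85, 798 and 782 FPKM in the knockout. *Cenpa*, the centromeric histone variant, was the exception and had the smallest p, at 21.4, 18.4 and 25.8 FPKM in the wild type and 48.7, 61 and 54.8 FPKM in the knockout. *Foxm1*, a mitotic transcription factor, was at 1.62, 2 and 1.8 FPKM in the wild type and at 1.56, 27.4 and 25.4 FPKM in the knockout. The next smallest p values were those of *Nuf2*, *Nusap1*, *Ccnb1* and *Cdk1*, with estimates of 1.36 to 1.56. Of the 25 tested, 1 had an unadjusted limma p under 0.05, beside 3.00% of all genes tested. None passed (limma, Benjamini-Hochberg adjusted p = 0.9988 for all 6 genes named).

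Several cell type markers also differed between the knockout samples, and their part in the result was not tested. All 5 endothelial markers (*Pecam1*, *Cdh5*, *Kdr*, *Tie1* and *Egfl7*) were higher in knockout libraries 2 and 3 than in library 1, by a median of 0.95. Of the 5, 3 were above every wild-type library in both knockout libraries 2 and 3, where 27.5% of all genes tested were. The sum of the 5 was 1078, 1558 and 1075 FPKM in the wild type and 840.3, 1715 and 1704 FPKM in the knockout. The ratio between knockout samples was 2.03, where that of the 41 replication genes was 3.85. All 8 ventricular cardiomyocyte markers ran the other way, with a sum of 67596 FPKM in knockout library 1, 21658 and 21374 FPKM in libraries 2 and 3, and 6650 to 24989 FPKM in the wild type. Fibroblast markers summed to 2171 FPKM in knockout library 1, to 512 and 519 FPKM in libraries 2 and 3, and to 1254 to 3246 FPKM in the wild type. The 7 macrophage markers that were listed summed to 579, 441 and 447 FPKM in the knockout and to 700.3 to 1433 FPKM in the wild type, so both lists were lowest where the replication genes were highest.

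Lymphocyte and most neutrophil markers were low. The 6 lymphocyte markers summed to 5.61 and 5.85 FPKM in knockout libraries 2 and 3, to 6.83 FPKM in library 1 and to 5.21 to 12.2 FPKM in the wild type, with *Cd3e* at 0 in knockout library 2 and wild-type library 2. Of the 5 neutrophil markers, *Elane* and *Camp* were listed at 0 in all 6 libraries and *Mpo* in all but knockout library 1, where it was at 0.0319 FPKM. The neutrophil sum was 69.5 FPKM in that library, of which *S100a8* made up 41.3 FPKM, and 11.6 to 24.9 FPKM in the others. Erythroid markers were abundant and highest in wild-type library 2, at a sum of 1754 FPKM, beside 355 to 1021 FPKM in the other libraries. Atrial markers summed to 37550 and 37639 FPKM in wild-type libraries 1 and 3 and to 1587 FPKM in wild-type library 2, beside 13932, 289.9 and 279 FPKM in the knockout. The replication genes of wild-type library 2, by contrast, did not stand apart from those of libraries 1 and 3. Of the atrial sum in knockout library 1, *Nppa* alone made up 13882 FPKM. *Sln*, *Myl4*, *Myl7*, *Dkk3* and *Stard10* were between 0.684 and 21.1 FPKM in that library. Adipocyte markers summed to 42.8 to 101 FPKM in the wild type and to 0.102 to 7.56 FPKM in the knockout.

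The 4 smooth muscle and pericyte markers went in both directions, and their part in the replication result was not tested. *Myh11*, smooth muscle myosin, was at 16.3 FPKM in knockout library 1 and at 62.8 and 64.6 FPKM in libraries 2 and 3, a difference of 1.91 on the log2 scale. *Cnn1*, calponin, was at 5.31, 39.4 and 41.6 FPKM in the knockout, a difference of 2.72. Both gaps followed the direction of the replication genes and were wider than the endothelial median of 0.95. In the wild type both were highest in library 2, where *Myh11* was at 97.6 FPKM and *Cnn1* at 49.1 FPKM. The pericyte markers *Rgs5* (-0.73) and *Kcnj8* (-1.59) were higher in knockout library 1, so the sum of the 4 genes, 93.3 to 202 FPKM in the wild type and 141 to 159 FPKM in the knockout, does not show the split.

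**Figure D4:**
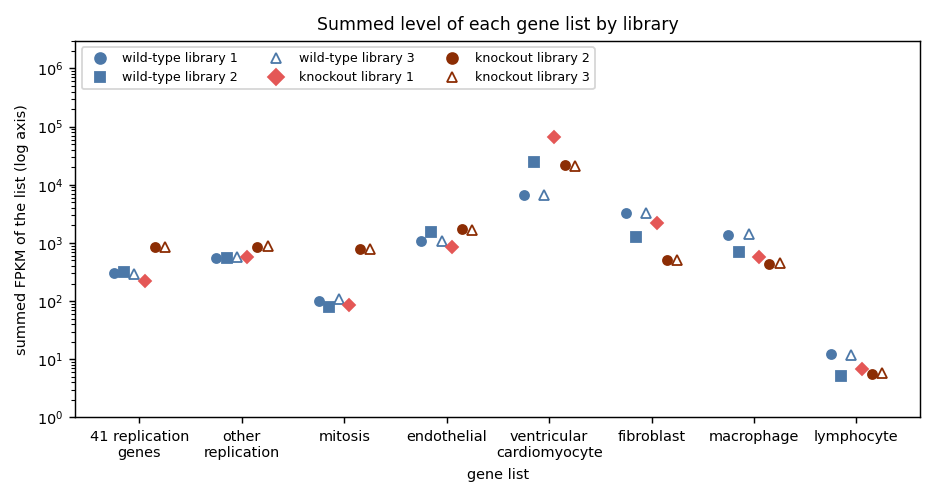
Summed FPKM of each gene list (log axis), with 1 symbol per library. The replication and mitosis sums of knockout libraries 2 and 3 (842 and 844, and 798 and 782 FPKM) stand above the other 4 libraries, the endothelial sums by less, and the fibroblast and macrophage sums stand below.

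Since the members varied together, their promoters were read for letters of the E2F type, TTTCCCGC, TTTCGCGC, TTTGCCGC or TTTGGCGC on either strand, in the 250 bases before each RefSeq gene start (GRCm38.p6, the same assembly as mm10). Of the 41 genes, 33 were matched by symbol, and 10 of these (30.3%) held at least 1 match, beside 2.16% of all 27025 genes of the table, 26.7% of the further replication genes and 3.85% of the mitosis genes. The 10 genes with a match differed between knockout samples by a median of 1.53 (range 0.82 to 4.07) and the 23 without by 2.29 (range -0.02 to 4.21), so a match did not go with a wider gap. Some of the windows read lay inside the gene's position in the deposited table. Among them were those of *E2f1* and *Tk1*, without a match, and that of *Cdc6*, with 1. The *Uhrf1* window with a match also lay inside, and the window directly before the deposited start of *Uhrf1* held no match. *Uhrf1*, at 4.07, set the upper end of the range of the genes with a match. The split by match is therefore approximate. Shown are the 250 bases of *Mcm6* (chr1:128359706-128359955, minus strand) and *Mcm5* (chr8:75109259-75109508, plus strand), which held the most matches. Also shown are those of the start of *Uhrf1* with a match (chr17:56304063-56304312, plus strand) and of *Tk1* (chr11:117826015-117826264, minus strand). *Tk1* had the widest gap on the log2(FPKM + 1) scale and no match. Each is written 5′ to 3′ on the gene's strand, with matches in capitals, and 2 matches on opposite strands overlap where a capital run exceeds 8 letters.
Mcm6: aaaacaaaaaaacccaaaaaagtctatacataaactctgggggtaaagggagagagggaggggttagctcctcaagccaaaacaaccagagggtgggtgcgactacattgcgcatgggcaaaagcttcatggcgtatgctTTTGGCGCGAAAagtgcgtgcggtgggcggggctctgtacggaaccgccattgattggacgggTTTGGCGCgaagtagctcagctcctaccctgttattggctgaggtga
Mcm5: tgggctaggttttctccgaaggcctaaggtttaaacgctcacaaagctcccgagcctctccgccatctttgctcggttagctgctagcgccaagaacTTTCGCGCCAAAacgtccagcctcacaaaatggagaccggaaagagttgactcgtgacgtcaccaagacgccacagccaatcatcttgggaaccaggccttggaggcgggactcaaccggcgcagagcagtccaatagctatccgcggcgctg
Uhrf1: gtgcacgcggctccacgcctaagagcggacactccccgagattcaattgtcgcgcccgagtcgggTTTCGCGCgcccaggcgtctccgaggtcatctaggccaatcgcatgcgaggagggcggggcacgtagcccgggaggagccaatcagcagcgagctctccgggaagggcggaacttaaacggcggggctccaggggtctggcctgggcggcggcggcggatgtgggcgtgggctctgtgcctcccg
Tk1: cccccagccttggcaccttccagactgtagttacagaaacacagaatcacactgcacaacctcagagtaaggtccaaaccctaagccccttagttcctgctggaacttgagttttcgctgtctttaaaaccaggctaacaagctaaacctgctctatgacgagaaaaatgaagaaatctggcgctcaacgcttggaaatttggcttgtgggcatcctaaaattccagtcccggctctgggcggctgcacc

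In *Mcm6* the 3 matches form 2 separate runs, and in *Mcm5* both matches share 1 run. These letters are a description of sequence, and no binding was measured.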

How the data were processed

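Total RNA (Trizol) went into Illumina TruSeq RNA libraries, per the labels' protocols. The authors deposited FPKM per gene, per the file headers, made with Cufflinks on mm10, per the submitters' processing notes. The sources used here do not give the Cufflinks version, the aligner, the annotation or the strand setting.

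Of 23995 genes, 27 whose symbols were dates or repeated were kept unnamed, and 1 further line held no values. Columns were matched to libraries by description. Differences were taken on log2(FPKM + 1) and tested with limma 3.58.1 in R 4.3.3 (lmFit, eBayes with trend and robust), Benjamini-Hochberg adjusted over 12485 genes at a threshold of 0.05. No count model was applied to FPKM. Sequencing depth was recovered from single-transcript genes over 1000 bases, where 76.4% to 81.8% of low values fell within 0.15 of whole reads. Recovered reads of the members use GENCODE M21 transcript lengths and are approximate. The script was tested on simulated data. Starts are 1-based.

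The members, lists and design were chosen with earlier results of these data known. Every member is given. Values in all libraries are printed for the 2 tested genes with the smallest p and the gene with the widest knockout gap in each role group, and for other members where the text turns on them, chosen after their values were seen. Of the wider replication and mitosis lists, 6 genes each were named by smallest p. Exons of 12 members overlap a coding gene on the other strand in GENCODE M21. For 5 members the deposited position is over 5 kb longer than in that annotation. The alternatives tried were other pseudocounts, filters, scalings and sets of libraries.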

Additional observations from a re-analysis of the deposited data

How the results depend on the processing

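The genotype difference of the 41 genes depended on knockout libraries 2 and 3. With both left out, the median was -0.38, 5 estimates were above 0, 5 genes were called across all genes, none of them a replication gene, and 32 members had the other sign, namely *Orc1* (-0.07), *Orc6* (-0.52), *Cdc6* (-0.03), *Cdt1* (-1.12), *Mcm2* (-0.18), *Mcm3* (-0.16), *Mcm4* (-0.31), *Mcm5* (-0.82), *Mcm6* (-0.51), *Mcm10* (-0.67), *Gins1* (-0.22), *Gins3* (-0.01), *Pola1* (-0.07), *Pola2* (-0.63), *Prim1* (-0.55), *Prim2* (-0.38), *Pole* (-0.02), *Rfc3* (-0.08), *Rfc5* (-0.70), *Fen1* (-0.13), *Lig1* (-1.07), *Rrm1* (-0.46), *Rrm2* (-0.49), *Tyms* (-1.01), *Tk1* (-0.07), *Chaf1a* (-0.98), *Chaf1b* (-1.44), *Uhrf1* (-0.92), *Dnmt1* (-0.19), *Ccne1* (-0.01), *Ccne2* (-0.16) and *E2f1* (-0.89). The wild-type samples are then set against 1 knockout library, which is assumed to vary as they do. Without knockout library 1 the median was 1.45. Under the other settings the median stayed between 0.44 and 0.89, and 36 to 39 estimates were above 0.

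The count of genes called was 1, and 2 with 6 libraries as separate samples, 0 with a pseudocount of 0.01 (353 at an unadjusted limma p under 0.05), 9 with no filter, and 1 to 12 with a library left out. The highest count came without wild-type library 2. Of the replication genes 0 passed in any of these fits. With 6 libraries, alone, with a record set term or with the replicate number as a block, *Mcm7* (0.27) and *Pold1* (0.30) turned positive. The block called 1 gene and gave 12 of 36 members an unadjusted p under 0.05, beside 14.8% of all genes tested. Deviations of same-numbered libraries from their group mean correlated at 0.116, 0.125 and -0.098. Wild-type libraries 1, 2 and 3 matched knockout libraries 1, 2 and 1 best. Each group holds a close pair and 1 further library, which ties these values together. They therefore cannot tell whether the numbers pair the libraries. *Chaf1b* was -0.39 and -0.57 with pseudocounts of 0.1 and 0.01, and -0.04 without wild-type libraries 1 and 3. *Orc6* was -0.02 with equal FPKM totals. With each library left out in turn, *Orc6* ran from -0.22 to 0.71, *Mcm7* from -0.14 to 0.58, *Pold1* from -0.18 to 0.69 and *Rfc2* from -0.49 to 0.08. The causes of these sign differences were not tested.

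Between knockout samples, 35 to 39 of the 41 genes stayed lower in library 1 by at least 1 under settings that could change this. Those settings were other pseudocounts, other scalings and leaving out knockout library 2 or 3. The share of all genes tested that were lower by as much was 8.9% in the main setting. It rose to 11.2% and 11.6% with pseudocounts of 0.1 and 0.01, and to 13.9% with equal FPKM totals. Taken here as library 1 minus libraries 2 and 3, the median of all genes tested moved from 0.04 to -0.20 with equal FPKM totals. That of the 41 moved from -1.68 to -1.89. Genes such as *Orc1* and *Ccne2*, at 0 to 5.4 recovered reads in the wild-type libraries, are limited by depth.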
